A study of Canis lupus familiaris with 29 samples.

Results

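The genes of vesicle docking and exocytosis were followed in canine pheochromocytoma and paraganglioma (PPGL), the tumors of catecholamine-producing chromaffin cells, and in normal adrenal medulla (NAM). Members were all rows of the count table whose gene name belonged to 1 of these families: synaptotagmins (SYT), syntaxins (STX), syntaxin binding proteins (STXBP), SNAP and VAMP genes, complexins (CPLX), UNC13 and CADPS priming factors, SV2 genes, synaptophysin (SYP), synapsins (SYN), and the RAB3 and RIMS genes. This name rule found 73 of the 30951 genes listed. It uses names only, but it was chosen with earlier results of these data known. The samples were 10 NAMs of healthy dogs from animal research and, from client-owned dogs, 7 tumors placed in PPGL group 1 and 12 placed in PPGL group 2, each from a different dog and none with a treatment named in the labels. The PPGL groups had been drawn by the authors from a principal component analysis of these same tumors. The authors had also excluded 2 further tumors as outliers by such an analysis. Apart from 1 paraganglioma, the tumors kept were pheochromocytomas. NAMs were snap-frozen, and tumors were either snap-frozen or kept in RNAlater first. Origin and storage therefore cannot be told apart from tissue in any comparison of PPGLs with NAMs.

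Chromaffin cells store catecholamines and granins in dense-core vesicles and release them when calcium enters the cell. A vesicle is tethered by RAB3 proteins and their RIM effectors, docked by syntaxin, primed by UNC13 and CADPS proteins, and fused with the plasma membrane when the SNARE proteins syntaxin, SNAP and VAMP zip together. Complexins hold and assist the SNARE complex, and synaptotagmins give it its response to calcium. SV2 proteins and SYP lie in the vesicle membrane, and synapsins coat synaptic vesicles.

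Between 19258054 and 35918182 reads per library were counted on genes in NAMs and between 18208718 and 31919833 in PPGLs, so that 3 counts, taken as the floor, stood for 0.0835 to 0.156 and for 0.0940 to 0.165 CPM, respectively. Levels are given in CPM (TMM-normalized counts relative to library size) as the lowest to the highest library with the median. Fold changes (log2 FC), their standard errors (SE) and p-values adjusted for the false discovery rate (FDR) are from the quasi-likelihood test of edgeR over all genes tested. Of the 73 members, 69 passed the low-count filter in both comparisons, and CPLX4, STX19, SYT8 and SYT10 did not. No row was named VAMP2, so this vesicle SNARE was not analysed here. The 12 chromaffin marker genes were all found, with a mean log2 CPM of 8.22 to 10.0 in NAMs and 5.41 to 10.08 in PPGLs. This mean was lowest in 4 tumors, group 1 replicates 3, 5 and 7 (6.92, 5.41 and 7.22) and group 2 replicate 11 (7.39), and counts are given with and without them. The 11 markers of adrenal cortex were all lower in PPGLs, with a summed level of 13167 to 62656 CPM in NAMs, 97.7 to 1170.4 CPM in group 1 and 213 to 28451 CPM in group 2, and none of them was at 0 throughout a group. These are bulk tissues, in which fewer cells of a type and less RNA per cell cannot be told apart.

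The first comparison asked how the secretory machinery of the tumors differed from that of the normal medulla. Of the 69 members tested, 16 were higher and 11 lower in PPGLs at an adjusted p below 0.05, with SYT3, CPLX2 and CPLX1 rising most and UNC13C, SYT12 and SYT2 falling most. This share of 39.1% stood beside 37.5% of all 14766 genes tested. The share of members higher was 23.2% against 22.3% of all genes, and the share lower was 15.9% against 15.2%. The counts by role given below stand beside the same shares of all genes. Whether a role differed from other genes was not tested. The median log2 FC was 0.17 over the members and 0.13 over all genes. UNC13C and SYT12 were the members past a log2 FC of 3 in size. Without the 4 tumors low in chromaffin markers, 16 members were higher and 12 lower, and 24 of the 27 calls remained. At 40.6% called, 23.2% higher and 17.4% lower, the members had the same shares as all genes in that fit.

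**Figure D1:**
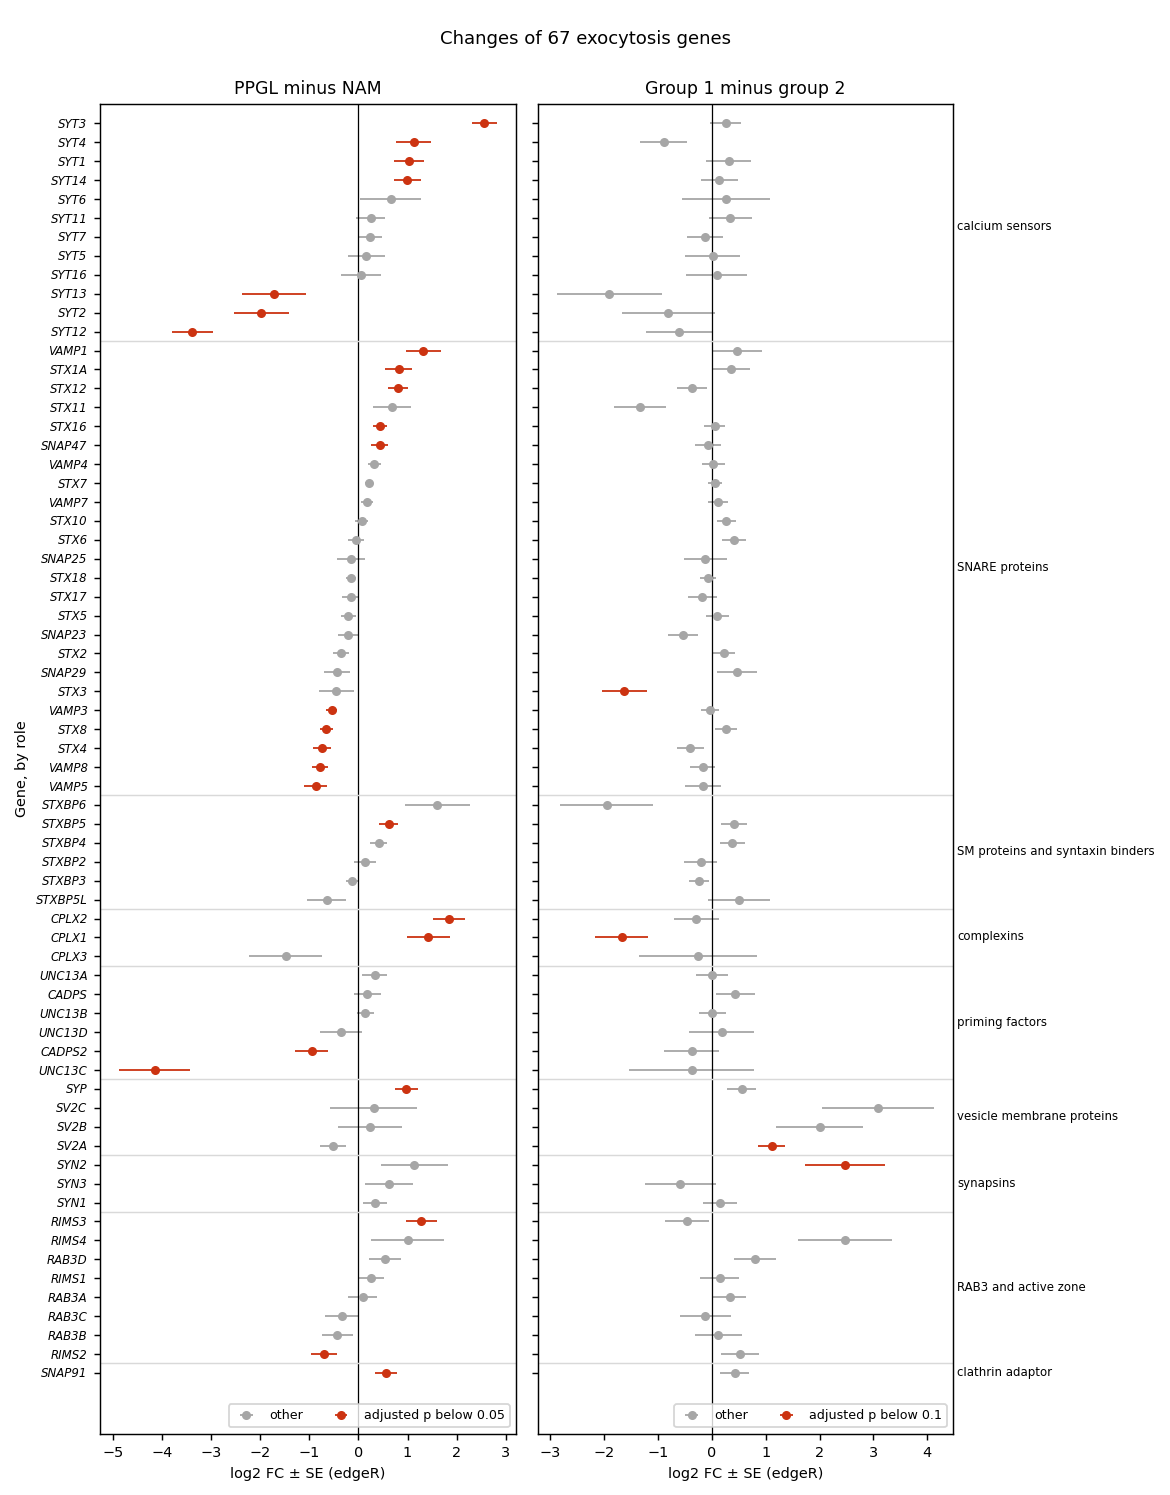
log2 FC ± SE (horizontal axis) of 67 of the 69 exocytosis genes tested, grouped by role (the SYT genes are listed as calcium sensors), for PPGLs minus NAMs (left, n = 19 and 10) and PPGL group 1 minus group 2 (right, n = 7 and 12). Red points mark the 26 genes drawn with an FDR-adjusted p below 0.05 on the left and the 4 below 0.1 on the right. UNC13C lies farthest from 0 on the left, at -4.16.

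Synaptotagmins moved in both directions, with 4 of the 12 tested higher in PPGLs, 3 lower and 5 not past the threshold. Of all genes, 22.3% were higher and 15.2% lower. SYT3, a calcium-binding synaptotagmin (ENSCAFG00000002960, chr1:106145356-106160942 in CanFam3.1), was measured at 4.58 to 11.2 CPM (median 6.61) in NAMs and 15.8 to 80.5 CPM (median 41.6) in PPGLs. All 19 PPGLs lay above every NAM, and SYT3 was the only member for which this held, against 0.223% of all genes tested. The difference was 5.92-fold (log2 FC 2.57, SE 0.26, adjusted p = 4.87e-08), and both PPGL groups took part in it, with 23.6 to 71.4 CPM (median 41.6) in group 1 and 15.8 to 80.5 CPM (median 38.8) in group 2. Adjusted for the cortical marker score, the log2 FC was 1.93 (adjusted p = 0.000136).

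SYT1, the main fast calcium sensor of neurons, ranged over 116 to 316 CPM (median 229) in NAMs and 76.4 to 1625 CPM (median 419) in PPGLs (log2 FC 1.03, SE 0.31, adjusted p = 0.0103). In 14 of 19 tumors SYT1 lay above every NAM, and the highest value, in group 1 replicate 5, was followed by 674 CPM. SYT4, a synaptotagmin of dense-core vesicles that does not sense calcium as SYT1 does, was at 112 to 524 CPM (median 199.7) in NAMs and 95.2 to 1216 CPM (median 455) in PPGLs (log2 FC 1.12, SE 0.36, adjusted p = 0.0141). Its ranges overlapped widely, with 8 tumors above every NAM, 7 of them in group 2. SYT14, which lacks the calcium-binding residues, was at 2.29 to 8.85 CPM (median 4.83) in NAMs and 2.01 to 17.0 CPM (median 12.2) in PPGLs (log2 FC 1.00, SE 0.27, adjusted p = 0.00484), and 14 tumors lay above every NAM. Adjusted for the cortical score, the calls of SYT1 (log2 FC 0.55, adjusted p = 0.397) and SYT14 (log2 FC 0.79, adjusted p = 0.158) were lost, and SYT4 kept its call.

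SYT12, another synaptotagmin without calcium binding (ENSCAFG00000011840, chr18:50336042-50351333), was lower in PPGLs, at 0 to 3.28 CPM (median 0.959), than in NAMs, at 2.02 to 20.6 CPM (median 12.3) (log2 FC -3.38, SE 0.42, adjusted p = 1.03e-06). In 17 of 19 tumors it was below every NAM, and 2 tumors were at or under the floor. SYT2, a fast calcium sensor close to SYT1, was at 1.89 to 11.9 CPM (median 6.30) in NAMs and 0 to 5.30 CPM (median 1.24) in PPGLs (log2 FC -1.98, SE 0.56, adjusted p = 0.00646), with 12 tumors below every NAM. The call of SYT2 was lost after adjustment for the cortical score (log2 FC -0.70, adjusted p = 0.604). Beside SYT1, SYT2 was the scarcer transcript in both tissues, at a median of 2.05 against 55.6 CPM per kb of exon in NAMs.

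SYT13, an atypical synaptotagmin, was at 23.6 to 114 CPM (median 51.5) in NAMs and 0.0443 to 64.9 CPM (median 7.29) in PPGLs (log2 FC -1.72, SE 0.65, adjusted p = 0.0373). The tumors spread over a far wider range on a log scale than the NAMs, with group 1 at 0.0443 to 24.2 CPM (median 0.807) and group 2 at 3.63 to 64.9 CPM (median 19.6). The call was lost without the 4 tumors low in chromaffin markers (log2 FC -1.40, adjusted p = 0.0616), without NAM replicate 2, 3, 6, 7 or 8 (adjusted p from 0.0504 to 0.0760), and after adjustment for the cortical score (log2 FC -0.02, adjusted p = 0.993). SYT7, a high-affinity calcium sensor of chromaffin cells, had 56.6 to 134 CPM (median 66.3) in NAMs and 36.5 to 198 CPM (median 82.1) in PPGLs, and its difference did not pass the threshold (log2 FC 0.24, SE 0.24, adjusted p = 0.469). The other 4 not called, SYT5, SYT6, SYT11 and SYT16, had a log2 FC between 0.05 and 0.66.

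**Figure D2:**
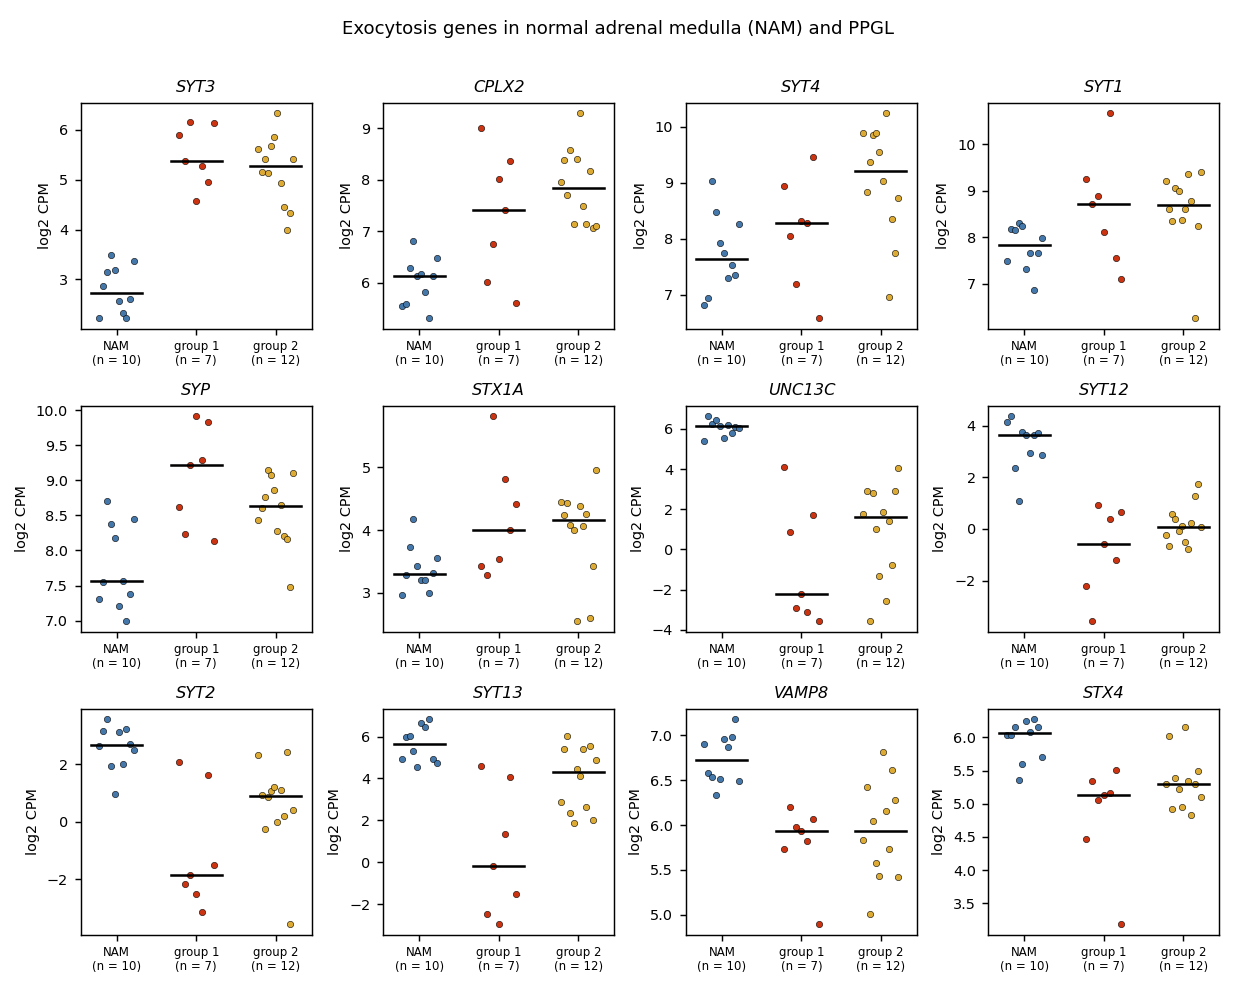
log2 CPM (vertical axis, prior count 2, own scale for each gene) of 12 exocytosis genes in NAMs, PPGL group 1 and PPGL group 2, with 1 point per library and a bar at the median. SYT3 separates all 19 PPGLs from all NAMs upward and UNC13C separates them downward, while the points of SYT4, SYP and STX1A overlap.

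Of the 25 SNARE genes tested, 5 were higher and 5 lower in PPGLs, beside 22.3% and 15.2% of all genes. Among the 11 tested of a fixed list of plasma membrane and secretory SNAREs, which does not hold VAMP5, 2 rose and 3 fell. STX1A, the plasma membrane syntaxin of regulated secretion, was at 7.73 to 18.1 CPM (median 9.74) in NAMs and 5.74 to 56.4 CPM (median 16.9) in PPGLs (log2 FC 0.82, SE 0.27, adjusted p = 0.0180). VAMP1, a vesicle SNARE, had 1.30 to 4.33 CPM (median 2.65) in NAMs and 1.87 to 20.1 CPM (median 4.02) in PPGLs (log2 FC 1.32, SE 0.36, adjusted p = 0.00512). Each had 9 tumors above every NAM, so that the groups overlapped. Both calls were lost after adjustment for the cortical score, for STX1A at a log2 FC of 0.32 (adjusted p = 0.595) and for VAMP1 at 0.50 (adjusted p = 0.515).

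SNAP25, which joins syntaxin and VAMP in the fusion complex, did not pass the threshold, at 126 to 481 CPM (median 216) in NAMs and 42.3 to 501 CPM (median 181) in PPGLs (log2 FC -0.15, SE 0.29, adjusted p = 0.718). SNAP25 had the highest level per length of all members in NAMs, with a median of 196 CPM per kb of exon, and 165 CPM per kb in PPGLs. For SNAP25, 1 tumor lay above and 5 below every NAM, and the groups overlapped.

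The 5 SNAREs that fell were VAMP3, VAMP5, VAMP8, STX4 and STX8. VAMP8, a SNARE of endosomes and of granule release in exocrine and blood cells, was at 80.5 to 145 CPM (median 106) in NAMs and 29.6 to 112 CPM (median 61.2) in PPGLs (log2 FC -0.79, SE 0.16, adjusted p = 0.000427). In 16 of 19 tumors it was below every NAM. Its neighbor VAMP5, a plasma membrane VAMP best known from muscle, was at 9.95 to 28.04 CPM (median 15.8) and 3.75 to 18.5 CPM (median 7.83) (log2 FC -0.87, SE 0.24, adjusted p = 0.00485), with 13 tumors below every NAM. The 2 genes lie side by side on the minus strand, VAMP5 at chr17:39488938-39495730 and VAMP8 at chr17:39497785-39501739.

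STX4, the plasma membrane syntaxin of constitutive and insulin-regulated trafficking, was at 41.0 to 77.4 CPM (median 66.7) in NAMs and 9.01 to 71.2 CPM (median 37.3) in PPGLs (log2 FC -0.74, SE 0.18, adjusted p = 0.00232). In 14 tumors STX4 was below every NAM, and group 1 replicate 7 held the lowest level of STX4 as well as of VAMP8 and VAMP3. STX8, a late endosomal syntaxin, had 28.8 to 43.2 CPM (median 35.2) in NAMs and 13.7 to 37.2 CPM (median 21.3) in PPGLs (log2 FC -0.65, SE 0.14, adjusted p = 0.000560), with 16 tumors below every NAM. VAMP3, of recycling endosomes, was the remaining SNARE that fell (log2 FC -0.54, adjusted p = 0.000326). The remaining SNAREs that rose were STX12 of recycling endosomes, STX16 of the trans-Golgi network and SNAP47, with a log2 FC of 0.43 to 0.82. The call of SNAP47 (adjusted p = 0.0417) was lost without the 4 tumors low in chromaffin markers (adjusted p = 0.0522), with DESeq2's size factors or without the count filter (adjusted p = 0.0514 and 0.0662), after adjustment for the cortical score (adjusted p = 0.269) and in 13 of the 29 fits that left out 1 library, those without NAM replicates 1 and 5 to 10, group 1 replicates 2 and 7, and group 2 replicates 2, 5, 9 and 12 (adjusted p up to 0.0762). The log2 FC of SNAP47 stayed at 0.41 to 0.42 in these settings other than the fits that left out 1 library, where it was 0.35 to 0.48.

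The other SNAREs reported here were not called by edgeR and lay between a log2 FC of -0.45 and 0.68. The Mann-Whitney U-test called SNAP29 and STX2 lower and STX7 higher (adjusted p = 0.0140, 0.0416 and 0.0263), beside a log2 FC of -0.44, -0.36 and 0.21. SNAP29, a SNARE of several intracellular membranes, lay below every NAM in 12 of the 19 tumors. DESeq2 also called STX7, an endosomal syntaxin (adjusted p = 0.0458), and scaling by library size called STX7 and VAMP4 (adjusted p = 0.0302 and 0.0265). Without the 4 tumors low in chromaffin markers, edgeR called SNAP29 (log2 FC -0.71, adjusted p = 0.00426) and STX2 (log2 FC -0.50, adjusted p = 0.00862) lower and VAMP4 higher (log2 FC 0.42, adjusted p = 0.00656).

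Among the 7 syntaxin binders, 2 rose and none fell by edgeR. STXBP5, or tomosyn, which competes for syntaxin and SNAP25, had a log2 FC of 0.62 (adjusted p = 0.0112). STXBP6, which binds the SNARE complex, had the widest spread of the family, at 0.701 to 3.74 CPM (median 1.53) in NAMs and 0.0583 to 19.4 CPM (median 3.75) in PPGLs (log2 FC 1.61, SE 0.66, adjusted p = 0.0535). STXBP6 passed by DESeq2 (adjusted p = 0.0181), with scaling by library size (adjusted p = 0.0458), with the mean of the adrenal cortex markers as a covariate (adjusted p = 0.0213) and in 9 of the 29 fits that left out 1 library. STXBP5L was called lower by the Mann-Whitney U-test (adjusted p = 0.0140) and not by edgeR (log2 FC -0.64, SE 0.40, adjusted p = 0.205), with 14 tumors below every NAM.

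Of the 3 complexins tested, 2 were higher, beside 22.3% of all genes. CPLX2, the main complexin of chromaffin cells (ENSCAFG00000016716, chr4:37206082-37275954), was at 39.5 to 112 CPM (median 69.9) in NAMs and 48.6 to 626 CPM (median 209) in PPGLs, 3.59-fold higher (log2 FC 1.84, SE 0.32, adjusted p = 7.81e-05). Of the 19 tumors, 16 lay above every NAM, all 12 of group 2 and 4 of the 7 of group 1. The share of all genes with group 2 wholly above the NAMs was not counted. CPLX1 was at 1.93 to 7.95 CPM (median 3.53) in NAMs and 1.61 to 28.5 CPM (median 11.1) in PPGLs (log2 FC 1.43, SE 0.44, adjusted p = 0.0113), with 11 tumors above every NAM, 10 of them in group 2, and 4 below. By the Mann-Whitney U-test in place of edgeR the adjusted p of CPLX1 was 0.0850. CPLX3, the complexin of ribbon synapses, had 11.4 to 128 CPM (median 34.4) in NAMs and 0.192 to 77.4 CPM (median 5.89) in PPGLs (log2 FC -1.49, SE 0.74, adjusted p = 0.115). By the Mann-Whitney U-test CPLX3 was called lower (adjusted p = 0.0180), and 12 of the 19 tumors lay below every NAM. The exons of CPLX2 and CPLX3 overlap those of HRH2 and LMAN1L on the same strand.

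None of the 6 priming factors rose, and 2 fell, beside 22.3% of all genes higher and 15.2% lower. UNC13C, the Munc13 protein best known from the cerebellum (ENSCAFG00000015890, chr30:19518232-20095094), was at 42.4 to 99.4 CPM (median 69.5) in NAMs and 0 to 17.1 CPM (median 1.91) in PPGLs. All 19 tumors lay below every NAM, as did all PPGLs for 0.481% of the genes tested, and 6 tumors were at or under the floor of 3 counts. The fitted difference was 17.8-fold (log2 FC -4.16, SE 0.72, adjusted p = 6.86e-05), and after adjustment for the cortical score it was -3.78 (adjusted p = 0.0353). CADPS2 was at 43.6 to 109.8 CPM (median 78.4) in NAMs and 2.71 to 102 CPM (median 36.2) in PPGLs (log2 FC -0.96, SE 0.34, adjusted p = 0.0256), a call lost without NAM replicate 6 (adjusted p = 0.0521) and after adjustment for the cortical score (log2 FC -0.55, adjusted p = 0.541).

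The other 4 priming factors did not pass the threshold. CADPS, like CADPS2 a priming factor of dense-core vesicles, was at 152 to 488 CPM (median 251) in NAMs and 85.5 to 889.5 CPM (median 306) in PPGLs (log2 FC 0.18, SE 0.27, adjusted p = 0.629). UNC13A, the main priming factor of synapses, had 16.0 to 94.0 CPM (median 36.3) and 23.6 to 117 CPM (median 57.3) (log2 FC 0.33, SE 0.26, adjusted p = 0.327). For both genes most tumors lay within the range of the NAMs. UNC13B and UNC13D had a log2 FC of 0.14 and -0.36 and were not called.

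SYP was the vesicle membrane protein that rose. Its protein, synaptophysin, is a stain by which the tumors were diagnosed. SYP was at 127 to 417 CPM (median 188) in NAMs and 178 to 966 CPM (median 403) in PPGLs (log2 FC 0.98, SE 0.24, adjusted p = 0.00236), with 9 tumors above every NAM and none below. SYP had the highest level per length of all members in PPGLs, a median of 207 CPM per kb of exon, followed by SYT4 at 182, SNAP25 at 165, CPLX2 at 131 and RAB3A at 130 CPM per kb. The order differed between the groups, with SYP at 305, RAB3A at 130 and SYT4 at 125 CPM per kb in group 1 and SYT4 at 238, SYP at 204 and SNAP25 at 173 CPM per kb in group 2. In NAMs the order was SNAP25 at 196, VAMP8 at 127, SYP at 96.7, SYT4 at 80.04 and RAB3A at 75.2 CPM per kb. SV2A, the widespread SV2 protein, was at 65.0 to 196 CPM (median 99.8) in NAMs and 25.8 to 237 CPM (median 67.5) in PPGLs (log2 FC -0.51, SE 0.26, adjusted p = 0.130). SV2A passed the threshold by the Mann-Whitney U-test (adjusted p = 0.0464), in the fit of all 3 groups (log2 FC -0.61, adjusted p = 0.0195) and with the cortical marker score as a covariate (log2 FC -1.48, adjusted p = 0.00321), and also without the 4 tumors low in chromaffin markers (log2 FC -0.80, adjusted p = 0.00202) or without group 1 replicate 3 alone (adjusted p = 0.0184).

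No synapsin or RAB3 gene passed the threshold, and of the 4 RIMS genes 1 was higher, 1 lower and 2 not called. SYN1 was at 84.0 to 246 CPM (median 116) in NAMs and 42.1 to 358 CPM (median 167) in PPGLs (log2 FC 0.33, SE 0.25, adjusted p = 0.295). RAB3A, the main vesicle RAB of regulated secretion, was at 40.2 to 217 CPM (median 61.3) and 27.5 to 199.5 CPM (median 106) (log2 FC 0.08, SE 0.30, adjusted p = 0.849). For neither gene did more than 2 tumors lie above every NAM or more than 2 below. RIMS1, the active zone scaffold, had 3.82 to 9.36 CPM (median 6.04) and 2.02 to 17.1 CPM (median 6.77) (log2 FC 0.26, SE 0.26, adjusted p = 0.453).

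The shorter RIM protein RIMS3 was higher, at 64.6 to 226 CPM (median 105) in NAMs and 27.8 to 569.9 CPM (median 308) in PPGLs (log2 FC 1.28, SE 0.32, adjusted p = 0.00244), and 13 tumors lay above every NAM. RIMS2 was lower, at 30.9 to 97.2 CPM (median 46.8) and 8.22 to 93.9 CPM (median 29.2) (log2 FC -0.70, SE 0.27, adjusted p = 0.0418), a call lost without the 4 tumors low in chromaffin markers (adjusted p = 0.0809) and in 15 of the 29 fits that left out 1 library, those without NAM replicates 1, 5, 7 and 9, group 1 replicates 1, 2 and 5, and group 2 replicates 3 to 9 and 11 (adjusted p up to 0.114). The log2 FC of RIMS2 was -0.57 without the 4 tumors and -0.86 to -0.56 in the fits that left out 1 library. SNAP91, a clathrin adaptor of vesicle retrieval that the name rule also took in, had a log2 FC of 0.56 (adjusted p = 0.0462). This call was lost by the Mann-Whitney U-test (adjusted p = 0.0773), with DESeq2's size factors or without the count filter (adjusted p = 0.0546 and 0.0668), with the cortical covariate, where the log2 FC was -0.0043, and in 17 of the 29 fits that left out 1 library, those without NAM replicates 1, 2 and 6 to 10, group 1 replicates 1, 2, 3, 5 and 6, and group 2 replicates 3, 5, 7, 8 and 12 (adjusted p up to 0.0933). With DESeq2's size factors and without the count filter the log2 FC of SNAP91 was 0.54. It was 0.49 to 0.66 in the fits that left out 1 library.

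Since the cortical markers were lower in PPGLs, their mean log2 CPM was also fitted as a covariate. In that fit 9 of the 27 calls remained, namely SYT3, SYT4, SYT12, CPLX1, CPLX2, STX8, STX12, RIMS3 and UNC13C, and 7 members were higher and 4 lower in all. These are 15.9% of the members, 10.1% higher and 5.8% lower, beside 12.2% of all genes in the same fit, 6.87% higher and 5.32% lower. Of all genes, 37.5% were called without the covariate. Among the calls lost, beside those given above, the log2 FC was 0.60 for SYP, 0.24 for STXBP5, 0.37 for STX16 and -0.60 for RIMS2 (adjusted p = 0.241, 0.586, 0.238 and 0.369). It was -0.50 for VAMP3, -0.48 for VAMP5, -0.56 for VAMP8 and -0.37 for STX4 (adjusted p = 0.0525, 0.390, 0.134 and 0.395). The score itself differed between the tissues, at 8.135 to 10.297 in NAMs and -0.016 to 9.027 in PPGLs. Score and tissue are therefore hard to tell apart in this fit. Calls were lost with little change in log2 FC, as for VAMP3 (from -0.54), or with a large one, as for SNAP91 (0.56 to -0.0043). Of the other markers, those of fibroblasts were higher in 4 of 6 genes in PPGLs, their summed CPM being 266 to 658 for NAMs and 154 to 25194 for PPGLs, and those of endothelium were lower in 4 of 6. Neuron markers were higher in 3 and lower in 2 of 8, leukocyte markers higher in 1 and lower in 1 of 8, and none of 6 Schwann cell markers tested was called. The part of these cell types in the differences of the exocytosis genes was not tested.

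**Figure D3:**
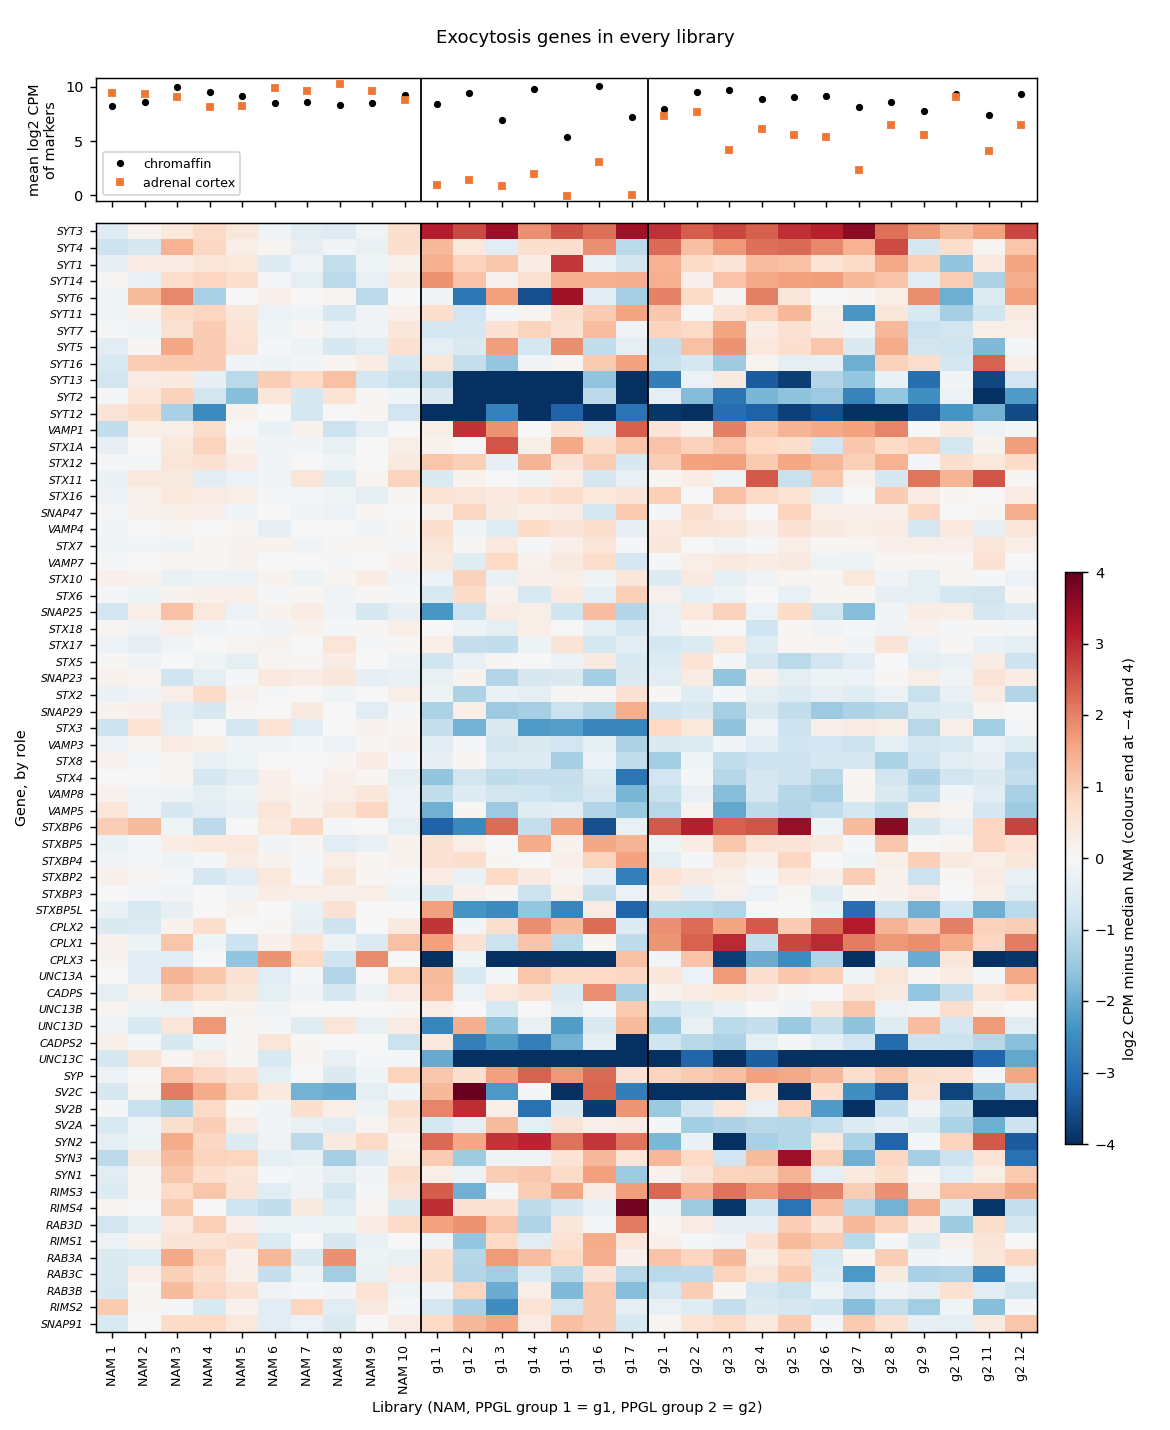
log2 CPM minus the NAM median (color, ending at -4 and 4) of 67 of the 69 exocytosis genes tested (rows, by role) in all 29 libraries (columns), with the mean log2 CPM of 12 chromaffin and 11 adrenal cortex markers in the upper panel. The row of SYT3 is red and those of UNC13C and SYT12 are blue across the tumors, and rows such as SV2C and STXBP6 change color from one tumor to the next.

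The tumors varied more among themselves than the NAMs. The SD of log2 CPM was higher in PPGLs than in NAMs for 67 of the 69 members (97.1%), as it was for 94.9% of all genes tested. The median SD over the members was 0.47 in NAMs, 0.86 in group 1 and 0.66 in group 2, beside 0.37, 0.71 and 0.57 over all genes. Wide ranges were those of SV2C, at 1.43 to 24.6 CPM (median 5.94) in NAMs and 0.0948 to 111 CPM (median 1.14) in PPGLs, and SV2B, at 30.7 to 121 CPM (median 71.0) and 1.35 to 545 CPM (median 42.6). For both of these vesicle glycoproteins the highest tumor was group 1 replicate 2, and neither passed the threshold between PPGLs and NAMs (adjusted p = 0.812 and 0.804).

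Docking and exocytosis genes outside the name rule were taken from a fixed list of 53, of which 48 were found and tested. In PPGLs 16 were higher and 3 lower (33.3% and 6.25%, beside 22.3% and 15.2% of all genes), with a median log2 FC of 0.33. The list was chosen with earlier results of these data known, so these shares do not test whether exocytosis genes rose. SYTL1, a synaptotagmin-like RAB27 effector, was at 0.334 to 2.34 CPM (median 0.948) in NAMs and 2.61 to 112 CPM (median 11.4) in PPGLs, and all 19 tumors lay above every NAM (log2 FC 4.30, SE 0.61, adjusted p = 5.86e-06). Of the other synaptotagmin-like genes, SYTL2 was higher (log2 FC 1.13, adjusted p = 0.0168), and SYTL3, SYTL4 and SYTL5 did not pass (adjusted p = 0.629, 0.449 and 0.0770). DOC2B, a calcium sensor of the soluble kind, was higher (log2 FC 1.32, adjusted p = 3.15e-05), and DOC2A did not pass (adjusted p = 0.0861). RPH3AL, a RAB3 and RAB27 effector, was also higher (log2 FC 1.03, adjusted p = 0.000693). So was the vesicle protein SYNGR1 (log2 FC 1.30, adjusted p = 7.87e-05). The 3 that fell were SYPL1, SCAMP2 and EXOC3, with a log2 FC of -0.76, -0.67 and -0.62. These genes were named after their values were seen.

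The second comparison asked how the exocytosis genes differed between PPGL group 1 and group 2, at an FDR-adjusted p below 0.1. SYN2 and SV2A were higher and STX3 and CPLX1 lower in group 1, and no other member passed. The 4 calls are 5.8% of the members beside 6.92% of all 14666 genes tested, 2.9% higher against 3.97% and 2.9% lower against 2.95%. For no member did the groups lie apart without overlap, as they did upward for 0.0409% and downward for 0.143% of all genes. Since the groups were drawn from the expression of these same tumors, the p-values describe the split and do not test it. The comparison shares its tumors with that of PPGLs and NAMs.

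SYN2, a synapsin that ties vesicles into a reserve pool (ENSCAFG00000004994, chr20:6369122-6568508), was at 12.2 to 34.8 CPM (median 20.3) in group 1, 0 to 23.2 CPM (median 1.76) in group 2 and 1.98 to 11.7 CPM (median 4.17) in NAMs. All 7 tumors of group 1 lay above every NAM, though the lowest, at 12.2 CPM, was close to the highest NAM at 11.7 CPM. In group 2, replicate 11 also lay above every NAM. The share of all genes with group 1 wholly above the NAMs was not counted. The log2 FC of group 1 over group 2 was 2.47 (SE 0.74, adjusted p = 0.0670), and the call was lost without group 1 replicate 4 (adjusted p = 0.104) or group 2 replicate 4 (adjusted p = 0.106). Without group 2 replicate 11 the log2 FC was 3.23 (adjusted p = 0.0126). The other synapsins, SYN1 and SYN3, had a log2 FC of 0.15 and -0.58 and were not called. Leaving out 1 tumor gave a log2 FC of -0.09 to 0.32 for SYN1 and -0.79 to 0.14 for SYN3.

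SV2A (ENSCAFG00000011588, chr17:59187244-59195888) was at 60.7 to 237 CPM (median 115) in group 1 and 25.8 to 97.3 CPM (median 48.5) in group 2 (log2 FC 1.11, SE 0.26, adjusted p = 0.0244). All 7 tumors of group 1 were above the median of group 2, and 4 were above every tumor of group 2. Without the 4 tumors low in chromaffin markers, 3 of which are in group 1, the log2 FC was 0.52 (adjusted p = 0.292). Its relatives SV2B and SV2C had larger but more scattered differences, with 4.90 to 545 CPM (median 84.8) against 1.35 to 131 CPM (median 35.7) for SV2B (log2 FC 2.00, SE 0.81, adjusted p = 0.178). SV2C was at 0.119 to 111 CPM (median 5.76) in group 1 and 0.0948 to 9.19 CPM (median 0.735) in group 2 (log2 FC 3.09, SE 1.04, adjusted p = 0.103), and its adjusted p was 0.0828 without the 4 tumors. Without group 1 replicate 2, the highest tumor for both, the log2 FC was 1.35 for SV2B and 1.68 for SV2C.

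STX3, the plasma membrane syntaxin of apical surfaces and ribbon synapses (ENSCAFG00000030417, chr21:50298158-50318663), was at 0.874 to 3.89 CPM (median 1.22) in group 1, 1.90 to 10.4 CPM (median 6.20) in group 2 and 3.28 to 8.69 CPM (median 5.91) in NAMs (log2 FC -1.63, SE 0.41, adjusted p = 0.0367). All 7 tumors of group 1 lay below the median of group 2, 5 of them below every tumor of group 2. Group 2 was spread around the level of the NAMs. The exons of STX3 overlap those of an unnamed gene on the opposite strand, and the strand setting of the counting was not given in the sources used here.

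CPLX1 (ENSCAFG00000016757, chr3:91638515-91656737) was at 1.61 to 11.1 CPM (median 3.73) in group 1 and 1.82 to 28.5 CPM (median 13.8) in group 2 (log2 FC -1.68, SE 0.49, adjusted p = 0.0644), beside 1.93 to 7.95 CPM (median 3.53) in NAMs. The median of group 1 was thus near that of the NAMs, and 10 of 12 tumors of group 2 were above every NAM. The call was lost without group 1 replicate 3, 5 or 7 (adjusted p up to 0.134), and without the 4 tumors low in chromaffin markers the log2 FC was -1.20 (adjusted p = 0.251). CPLX2 was at 48.6 to 511 CPM (median 169) in group 1 and 134 to 626 CPM (median 229) in group 2 (log2 FC -0.29, SE 0.42, adjusted p = 0.756).

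**Figure D4:**
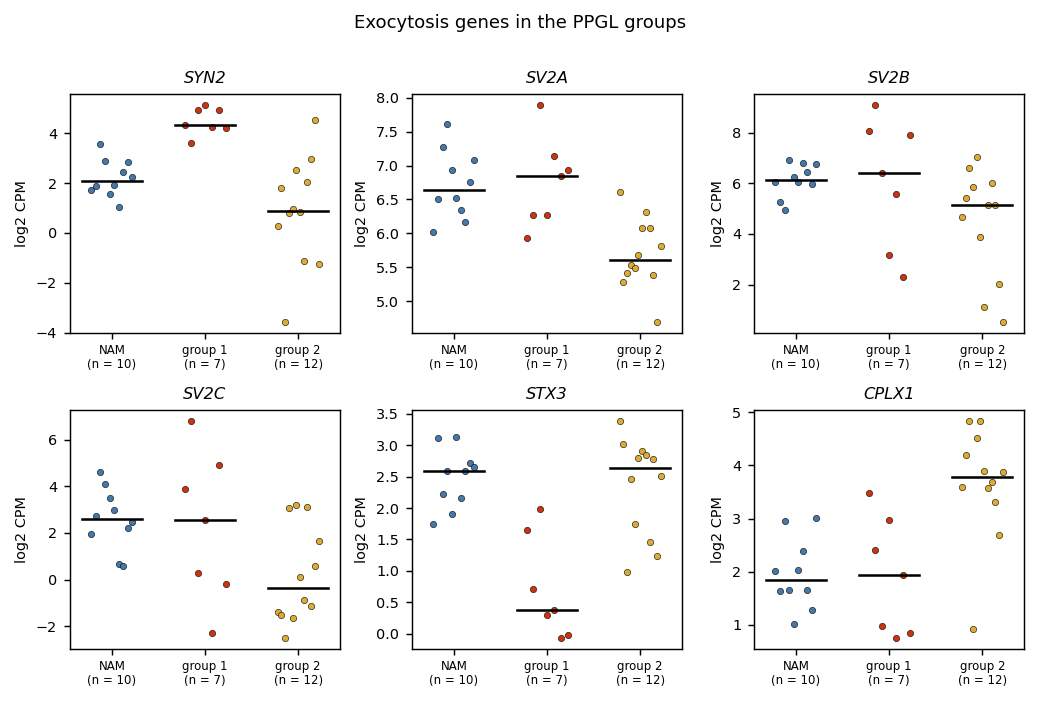
log2 CPM (vertical axis, prior count 2, own scale for each gene) of 6 exocytosis genes in NAMs, PPGL group 1 and PPGL group 2, with 1 point per library and a bar at the median. SYN2 and SV2A are higher and STX3 and CPLX1 lower in group 1 than in group 2, and SV2B and SV2C span wide ranges within both groups.

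SYT3, UNC13C and SYT12 did not pass the threshold between the groups. SYT3 had a log2 FC of 0.26 (SE 0.29, adjusted p = 0.669) in group 1 over group 2, UNC13C of -0.37 (SE 1.16, adjusted p = 0.894) and SYT12 of -0.61 (SE 0.61, adjusted p = 0.620). The log2 FC of UNC13C was -2.29 without group 1 replicate 1. SNAP25, SYT1 and CADPS, parts of the fusion and priming machinery, had a log2 FC of -0.12, 0.31 and 0.44, with SEs of 0.40, 0.42 and 0.35. That of SYT1 was -0.30 without group 1 replicate 5. Over the fits that left out 1 tumor, the log2 FC was -0.55 to 0.05 for SNAP25 and 0.07 to 0.61 for CADPS. Of the 48 other docking and exocytosis genes, RPH3A, CASK and PPFIA4 were higher and SYTL5 lower in group 1 (8.33%, beside 6.92% of all genes). RPH3A, a RAB3 effector, had a median of 1.95 CPM in group 1 and 0.141 CPM in group 2 (adjusted p = 0.00555), with a highest tumor at 125 CPM. The median of group 2 was within the range of its floor of 3 counts, 0.122 to 0.165 CPM, so no fold is given.

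The adrenal cortex markers moved with the groups. They were lower in group 1 in 10 of 11 genes, and with their mean as a covariate no member passed (3 had an unadjusted p below 0.05), nor did any of all 14666 genes, while the edgeR fit without it called 4 members. The differences of these 4 kept their direction with the covariate, at a log2 FC of 2.12 for SYN2, 1.05 for SV2A, -1.84 for CPLX1 and -1.12 for STX3 (adjusted p = 0.647, 0.533, 0.471 and 0.665). Of the 8 neuron markers 1 was higher in group 1, and their summed level was 745 to 1415 CPM in group 1, 84.4 to 597 CPM in group 2 and 483 to 1306 CPM in NAMs. Their mean log2 CPM overlapped between the groups, at 3.07 to 5.46 in group 1 and 1.62 to 4.27 in group 2. No marker of Schwann cells, endothelium, leukocytes or fibroblasts was called between the groups. The part of neuronal elements in the SYN2 and SV2A differences was not tested. Without the 4 tumors low in chromaffin markers, SYN2, STX3, SV2C and STXBP6 passed, and CPLX1 and SV2A did not. Those that passed in that fit are 5.8% of the members, beside 2.97% of all genes. With all tumors the shares were 5.8% and 6.92%.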

How the data were processed

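Stranded mRNA libraries of 29 canine samples were sequenced as single-end 50 bp reads, which the authors mapped to CanFam3.1 using STAR. The deposited values were raw counts per Ensembl gene over its exons, not normalized, and 12712 of the 30951 rows carried no gene name. The handling of strand and of reads that fit several genes was not given in the sources used here, and the exons of 12 members overlap those of another gene.

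Counts were filtered with filterByExpr (minimum count 10, minimum total 15), normalized by TMM and fitted over all genes with edgeR 4.0.16 in R 4.3.3 (glmQLFit, glmQLFTest), with Benjamini-Hochberg correction and a prior count of 0.125 for the log2 FC. PPGLs (n = 19) were compared with NAMs (n = 10) at an adjusted p below 0.05, and group 1 (n = 7) with group 2 (n = 12) below 0.1. These are the adjusted p limits of the study, whose methods also set a minimum size of the log2 FC that was not applied here. The study's Mann-Whitney U-test was an alternative, as were DESeq2 1.42.0, other scalings and filters, a prior count of 2, all 3 groups in 1 fit, a replicate block on the sample number, a covariate for the cortical marker score and fits without each library in turn. The fits were tested on simulated counts with 4-fold changes and the same dispersion for every gene. They recovered 100% of the changed genes tested, with 7 false calls for PPGLs against NAMs and 19 between the groups. In the real data the spread differed between genes and between tissues, which the simulation did not cover. The fit without the 4 tumors lowest in chromaffin markers was added after the data were seen.

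The members, the marker lists (chromaffin, adrenal cortex, Schwann, neuron, endothelium, leukocyte and fibroblast) and the list of other exocytosis genes were chosen with earlier results of these data known. Genes named with values were the 10 called members with the largest log2 FC in each direction for PPGLs against NAMs, up to 8 in each direction for the groups (2 in each were called), and a list of core genes whatever their result. Other members named with values (STX11, SNAP47, VAMP3, STXBP5, STXBP6, CPLX3, SNAP91, STX16, SYN3, UNC13B, UNC13D, SNAP29, STX2, STX7, VAMP4, STXBP5L and those given as the ends of a range) were chosen after their values were seen. The floor of 3 counts covers counting error only. Within each group, libraries differed from each other by far more than sampling noise. Levels between genes are compared per kb of exon. No sequences are printed. For 2 members that were tested and counted, values are not reported here.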

Additional observations from a re-analysis of the deposited data

Results flagged for a closer look

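VAMP8 in PPGL group 1 stood out for 1 tumor, replicate 7, which lay far below the others at 29.6 CPM, with the next tumor at 53.1 CPM. It was the only such sample in 68 tests of Dixon's kind over the named genes in groups of 4 to 10 libraries, of which chance alone gives about 1 in 20. The 4 members that passed between the PPGL groups were CPLX1 (log2 FC -1.68 in group 1 over group 2), SYN2 (2.47), SV2A (1.11) and STX3 (-1.63). Each is a difference between the groups by edgeR's test, and the groups had been drawn from these same tumors.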

How the results depend on the processing

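In PPGLs against NAMs, the cortical score as a covariate moved the number of members higher from 16 to 7 and lower from 11 to 4, and that of all genes from 3295 to 1015 and from 2246 to 786. The other scalings, filters, tests and fits, including the fit without the 4 tumors lowest in chromaffin markers, left these counts within 1.5 times the values given, apart from the replicate block. Leaving out 1 library gave 13 to 18 higher and 9 to 13 lower. Between the groups, where 2 members were higher and 2 lower, DESeq2's Wald test and the fit of all 3 groups each gave 5 higher and 4 lower, adding STX11, SV2B, SV2C, STXBP6 and RIMS4. These are 13.0% of the members, beside 12.2% of all genes by DESeq2 and 16.3% in the fit of all 3 groups. The cortical covariate gave 0 and 0 by edgeR (3 members at an unadjusted p below 0.05). Leaving out 1 tumor gave 1 to 4 higher and 1 to 2 lower. Among the members named with values, the direction of a called difference turned once under these alternatives, for SNAP91 in PPGLs against NAMs with the cortical covariate (log2 FC -0.0043, adjusted p = 0.995). The cause of these changes was not tested. At these depths members under about 0.16 CPM could not be told from 0.

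The sample numbers of the labels count different dogs in each group, and libraries with the same number did not deviate together (24 pairs, median r -0.014, against 0.002 over 250 pairs of different numbers). With the number as a replicate block, edgeR called 10 members higher and 13 lower in PPGLs (33.3%, beside 31.5% of all genes), and 0 higher and 0 lower between the groups, where 11 members had an unadjusted p below 0.05 and where 10 and 37 of all genes were called.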

Other observations

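Single libraries held many of the extreme values. Among the 10 NAMs, replicate 3 was highest for 20 and replicate 4 for 18 of the members, and these were the NAMs with the highest mean log2 CPM of chromaffin markers (10.0 and 9.55). Replicate 8, with the highest cortical mean (10.3), was lowest for 21 members. Among the tumors, group 1 replicate 7 was lowest for 13 members and highest for 8, with STX4, VAMP8, VAMP3, CADPS2, CPLX2 and SYN1 among the lowest and SNAP29, RAB3D, STXBP4 and RIMS4 among the highest. SYT1 was highest in group 1 replicate 5, the tumor with the lowest chromaffin mean (5.41), which also held the highest SYT5 and SYT6.

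Of the 4 members left out by the low-count filter, SYT8 was at 0 in all 10 NAMs and at most 0.291 CPM in PPGLs. STX19 was at or under the floor in 18 of 19 tumors and at 2.78 CPM in group 1 replicate 7. Without the count filter edgeR called SYT8 in PPGLs against NAMs (adjusted p = 0.0415) and STX19 between the groups (adjusted p = 0.0472), and no fold is given since nearly all libraries were at or under the floor. SYT10 reached 1.44 CPM and CPLX4 0.423 CPM in the highest tumor.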
